A study of Mus musculus with 6 samples.

Results

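The genes described here are 10 components of the circadian clock, Arntl, Npas2, Clock, Per1, Per2, Per3, Cry1, Nr1d1, Nr1d2 and Dbp, named by symbol and found as 10 of the 36557 gene rows of the deposited count table. RNA had been sequenced from the aortic arch together with the thoracic aorta of mice fed a high-fat diet for 4 weeks. One group was Apoe-/- MiR26b-/- animals, which lack apolipoprotein E and the microRNA gene Mir26b, with 3 libraries, called knockout here. The controls were Apoe-/- animals that keep Mir26b, also with 3 libraries, so both groups carry the Apoe deletion and the diet. Age, sex, strain, the design of the Mir26b allele and the hour of tissue collection are not given in the sources used here. Whether the libraries are of separate animals is not stated, and the p-values here thus reflect variation among the libraries, which may be technical.

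The clock is a loop of transcription and delayed repression that runs in nearly every cell, vascular cells included. ARNTL (also called BMAL1) pairs with CLOCK or with its relative NPAS2 and switches on genes that carry an E-box, among them the Per, Cry, Nr1d and Dbp genes; PER and CRY proteins then block the pair, and NR1D1 and NR1D2 (REV-ERB alpha and beta) repress Arntl and Npas2 through a second element, the RORE. In mouse tissues Arntl and Npas2 therefore peak towards the end of the night and the first hours of light, while Nr1d1, Dbp and the Per genes peak later in the day, so tissue taken at different hours can differ in opposite directions in these arms.

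The sequences through which this loop is known to work are shown for the members whose promoters hold them. RefSeq promoter windows on GRCm38.p6, running from 250 bases before to 50 bases after a transcript start, were at hand for 9 of the 10 genes, in 13 windows; Per2 had none. They were searched on both strands for the E-box CACGTG, its variant CACGTT, the RORE core TAGGTCA, the D-box TTANGTAA (bound by DBP) and the cyclic AMP response element TGACGTCA. Motifs were found in 5 of the 9 genes and did not overlap each other; they are in capitals, with 20 bases on either side where the window allows, and each stretch is written 5′ to 3′ on the gene's own strand.
Arntl, RORE core, chr7:113207521-113207560, plus strand: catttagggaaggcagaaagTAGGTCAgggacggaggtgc
Per1, E-box, chr11:69098763-69098808, plus strand: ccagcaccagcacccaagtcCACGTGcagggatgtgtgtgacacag
Per3, 2 D-boxes, chr4:151044796-151044890, minus strand: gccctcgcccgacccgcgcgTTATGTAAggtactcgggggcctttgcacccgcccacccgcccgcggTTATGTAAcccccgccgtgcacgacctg
Cry1, variant and E-box, chr10:85185089-85185153, minus strand: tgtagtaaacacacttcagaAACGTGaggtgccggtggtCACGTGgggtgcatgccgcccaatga
Nr1d1, variant, chr11:98775380-98775425, minus strand: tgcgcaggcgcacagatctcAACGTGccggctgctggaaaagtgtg
Of the 13 member windows, the E-box was present in 2, its variant in 2, the RORE core in 1, the D-box in 1 and the cyclic AMP element in 0. Over all 32851 promoter windows the shares were 7.15%, 4.68%, 2.61%, 2.32% and 1.79%, in the same order. The share of all genes with any of these motifs was not computed, so the 5 of 9 genes have no background beside them. A match is a description of the letters only.

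The microRNA that the knockouts lack is shown for its relation to the members' transcripts, with the seed (bases 2 to 8) in capitals.
mmu-miR-26b-5p: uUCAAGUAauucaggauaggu
The 7-base match to this seed, TACTTGA, occurred in the longest annotated 3′ UTR of 1 of the 10 members, Per3, against 11.1% of the 16133 tested genes that have such a UTR. In Per3 the match begins at base 437 of the UTR of Per3-201 and is followed by an A.
Per3 site: cccactagaaTACTTGAagaacttctg

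Library totals of estimated counts ranged between 51634139 and 54817547. The table held 0 rows for Mir26b or any other microRNA gene, so the deletion was not checked. Smooth muscle and endothelial markers were present in every library, with Acta2, an actin of smooth muscle, between 8735 and 14884 CPM (counts relative to the library total, scaled by TMM, edgeR's normalization) and the endothelial gene Pecam1 between 621 and 822 CPM. On the first principal component of gene levels (61.9% of the variance) knockout replicate 3 lay between its own group and the controls, at -0.97, where the other knockouts stood at -47.0 and -55.7 and the controls between 25.4 and 45.3. Clock gene results are therefore also given without it where that changes a call.

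None of the 10 clock genes passed the test between the groups, although 5 of them stood lower in every knockout library than in every control library, and these 5 came from both arms of the loop. With edgeR (quasi-likelihood test, p adjusted by Benjamini and Hochberg's method over all 17392 genes tested), 10.3% of genes were called (6.5% higher and 3.84% lower), against 0 higher and 0 lower among the 10 members, all of which had passed the low-count filter. At an unadjusted p under 0.05, 4 members were lower (Clock, Per2, Nr1d1 and Nr1d2) and 0 higher, where 13.2% of all genes were lower. Groups did not overlap for 5 members, all lower in knockouts (the same 4 and Arntl), where 17.2% of all genes were lower without overlap and 18.9% higher. The median log2 fold over the 10 members was -0.20, beside -0.0033 for all genes, and 8 of the 10 folds were below 0. DESeq2, which called 19.8% of genes, called 1 member, Clock; limma called 0. Without knockout replicate 3, edgeR called 28.7% of genes and 5 members, Clock, Per1, Per2, Nr1d1 and Nr1d2, all lower. Without any other single library it called at most 0.40% of genes and 0 members.

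**Figure D1:**
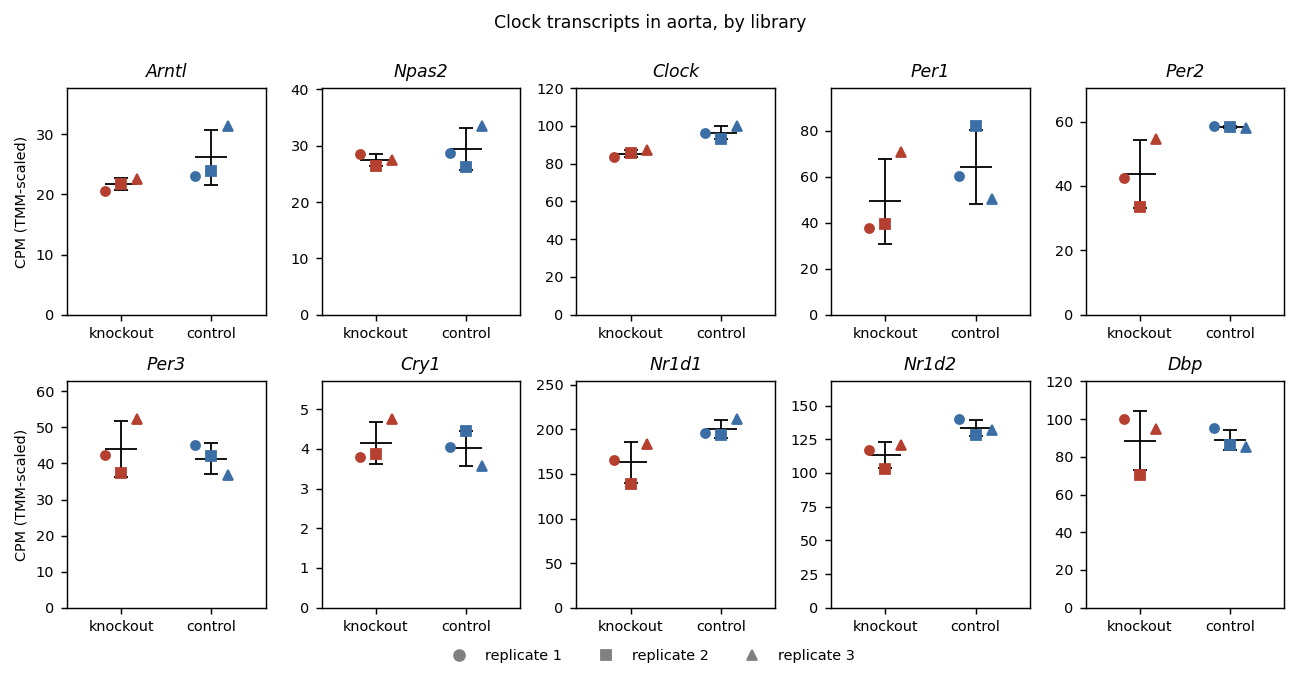
CPM after TMM scaling of each of the 10 clock genes in the 3 knockout libraries (red, left) and the 3 control libraries (blue, right), with a marker shape per replicate and black bars for mean ± SD. Knockout values lie below all control values for Arntl, Clock, Per2, Nr1d1 and Nr1d2, and knockout replicate 3 is the highest knockout in 8 of the 10 panels.

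Among the activators, Clock showed a small difference with a narrow spread, and Arntl leaned on a single control. Clock (ENSMUSG00000029238, chromosome 5, 76209868 to 76304792, GRCm38), which encodes the DNA-binding partner and acetyltransferase of the pair, had 83.6, 85.4 and 87.1 CPM in knockouts, against 96.2, 93.1 and 100.03 CPM in controls. The groups did not overlap, and each spanned only a few CPM. Its log2 fold was -0.18 (SE 0.05, 95% interval -0.29 to -0.06) with an edgeR adjusted p of 0.0667. The adjusted p was 0.0231 by DESeq2 and 0.0353 by edgeR without knockout replicate 3, and over all 18 alternatives it lay between 0.0231 and 0.215.

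Arntl (ENSMUSG00000055116, chromosome 7, 113207465 to 113314126) had 20.6, 21.7 and 22.6 CPM in knockouts, against 23.1, 23.9 and 31.4 CPM in controls. Knockouts were all below controls, but control replicates 1 and 2 lay close to them and control replicate 3 stood well above. The log2 fold was -0.27 (SE 0.12, interval -0.57 to 0.03; edgeR adjusted p = 0.198), and it was -0.12 without control replicate 3. Npas2 (ENSMUSG00000026077, chromosome 1, 39193731 to 39363236), whose product can take the place of CLOCK, had 28.5, 26.4 and 27.5 CPM in knockouts, against 28.7, 26.1 and 33.5 CPM in controls. Here the groups overlapped and control replicate 3 was again the highest library, with a log2 fold of -0.10 (SE 0.10, interval -0.34 to 0.13; edgeR adjusted p = 0.518). The Npas2 fold was -0.00025 without control replicate 3 and -0.18 without control replicate 2.

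The Per genes, which encode the repressors that also respond acutely to light, hormones and stress signals, differed in the direction of their folds, none of which passed; whether the folds differ from each other was not tested. Within the knockouts, all 3 Per genes were highest in replicate 3. Per2 (ENSMUSG00000055866, chromosome 1, 91415982 to 91459324) had 42.6, 33.6 and 54.6 CPM in knockouts, against 58.7, 58.3 and 57.9 CPM in controls. The controls were almost identical while the knockouts were scattered below them, knockout replicate 3 nearest. The log2 fold was -0.42 (SE 0.16, interval -0.81 to -0.03; edgeR adjusted p = 0.138), and without knockout replicate 3 it was -0.61 with an edgeR adjusted p of 0.00654. Without knockout replicate 2, the lowest library, it was -0.26 with an edgeR adjusted p of 0.251. Per2 lies 17.0 Mb from Mir26b on chromosome 1 and Npas2 lies 35.0 Mb from it; whether genome carried with the Mir26b allele has a part in their levels was not tested.

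Per1 (ENSMUSG00000020893, chromosome 11, 69095217 to 69109960) had 37.9, 39.3 and 70.7 CPM in knockouts, against 60.2, 82.2 and 50.5 CPM in controls. Knockout replicates 1 and 2 lay below all controls and knockout replicate 3 above 2 of them. The log2 fold was -0.38 (SE 0.29, interval -1.07 to 0.30; edgeR adjusted p = 0.412), and without knockout replicate 3 it was -0.74 with an edgeR adjusted p of 0.0362. Without knockout replicate 1, knockout replicate 2 or control replicate 2 it was -0.23, -0.24 or -0.17, and did not pass. Those fits called at most 0.40% of all genes. Per1 varied most among the members, with a within-group SD of 0.44 on the log2 scale, larger than that of 93.2% of 13297 genes whose mean log2 CPM reached 1; Clock varied least, with an SD of 0.04, larger than 7.42% of them.

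Per3 (ENSMUSG00000028957, chromosome 4, 151003652 to 151044665), the Per gene that is not needed for rhythm in mice and the one with the miR-26 site printed above, had 42.3, 37.3 and 52.4 CPM in knockouts, against 45.1, 42.0 and 36.7 CPM in controls. The groups overlapped throughout. Its log2 fold was 0.09 (SE 0.14, interval -0.24 to 0.42; edgeR adjusted p = 0.689). Cry1 (ENSMUSG00000020038, chromosome 10, 85131700 to 85185064), which encodes the main repressor partner of PER and carries both E-box forms shown above, had 3.799, 3.87 and 4.75 CPM in knockouts, against 4.04, 4.44 and 3.56 CPM in controls. These also overlapped, with a log2 fold of 0.05 (SE 0.15, interval -0.31 to 0.40; edgeR adjusted p = 0.864). Without knockout replicate 3 the folds of Per3 and Cry1 were on the other side of 0, at -0.05 and -0.07.

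Both Nr1d genes, nuclear receptors that repress Arntl, stood lower in the knockouts, on the same side as Arntl itself. Nr1d1 (ENSMUSG00000020889, chromosome 11, 98767932 to 98775333) had 166, 139 and 184 CPM in knockouts, against 196, 193 and 212 CPM in controls. The groups did not overlap and knockout replicate 2 was lowest. The log2 fold was -0.30 (SE 0.11, interval -0.55 to -0.04; edgeR adjusted p = 0.115), or -0.40 with an edgeR adjusted p of 0.0199 without knockout replicate 3. Without knockout replicate 2 it was -0.20 (edgeR adjusted p = 0.240). Nr1d1 shares 263 exon bases with Thra, the thyroid hormone receptor alpha gene on the opposite strand, and strandedness is not stated. Thra, at 203 ± 24.3 CPM in knockouts and 240.1 ± 14.7 CPM in controls (SD, n = 3 each), had a log2 fold of -0.24 (edgeR adjusted p = 0.153), and reads of this pair cannot be told apart where they overlap.

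Nr1d2 (ENSMUSG00000021775, chromosome 14, 18204054 to 18239127) had 117, 103 and 121 CPM in knockouts, against 140.1, 128 and 132 CPM in controls. It repeated the order of Nr1d1 among the knockouts, without overlap of the groups. Its log2 fold was -0.23 (SE 0.08, interval -0.41 to -0.05; edgeR adjusted p = 0.0945), or -0.28 with an edgeR adjusted p of 0.0331 without knockout replicate 3. Without knockout replicate 2 it was -0.17 (edgeR adjusted p = 0.236), and without control replicate 1 it was -0.19 (edgeR adjusted p = 0.281).

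Dbp (ENSMUSG00000059824, chromosome 7, 45705088 to 45710203), a D-box binding factor that is a direct output of the loop, had 100.1, 70.6 and 94.9 CPM in knockouts, against 95.1, 86.3 and 85.2 CPM in controls. The knockouts held both the highest and the lowest library. The log2 fold was -0.01 (SE 0.13, interval -0.32 to 0.31; edgeR adjusted p = 0.985), so a difference of up to about 0.3 on the log2 scale either way lies within the interval. Dbp shares 539 exon bases with the opposite-strand gene Sphk2, which had a log2 fold of 0.01 (edgeR adjusted p = 0.927).

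**Figure D2:**
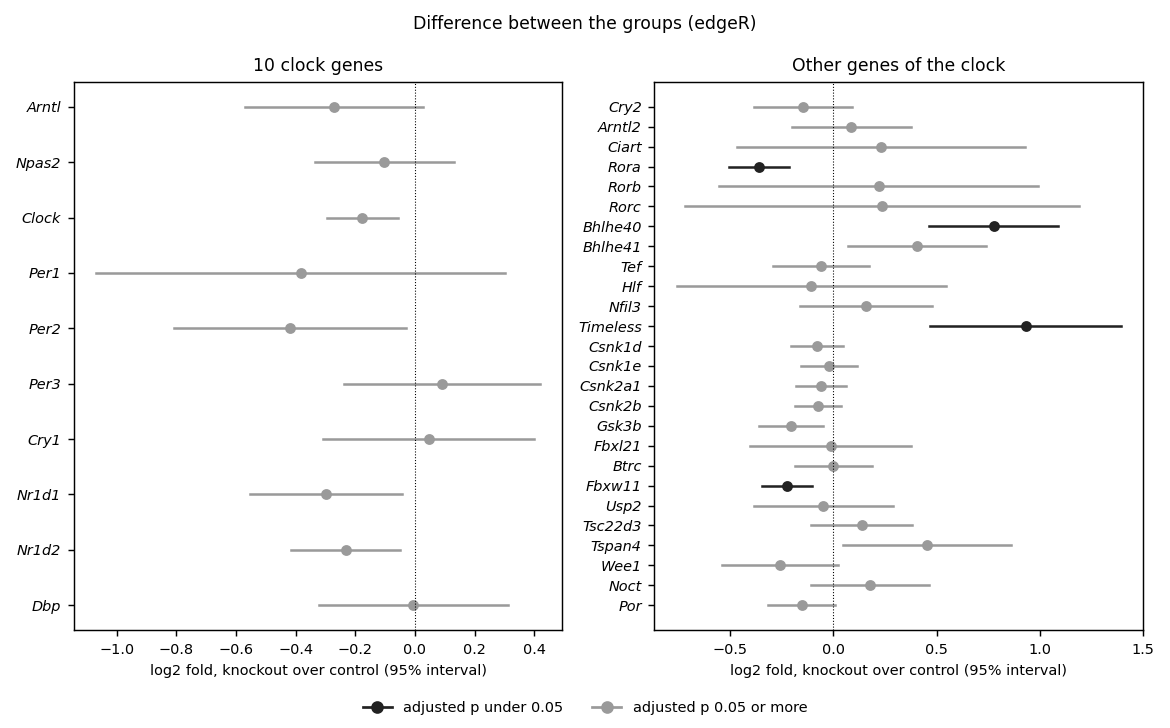
Log2 fold, knockout over control, with its 95% interval (edgeR) for the 10 clock genes (left) and other genes of the clock (right), black where the adjusted p was under 0.05. No interval on the left is black, and Rora, Bhlhe40, Timeless and Fbxw11 are black on the right.

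Ratios between the arms, described by library, overlapped between the groups. The log2 ratio of Arntl to Dbp, from the deposited TPM values (which are scaled for transcript length), was -3.14, -2.55 and -2.91 in knockouts, against -2.94, -2.70 and -2.31 in controls. The knockout mean was -2.87 ± 0.30 and the control mean -2.65 ± 0.32 (SD, n = 3 each), a difference of -0.22 that is smaller than either SD. Control replicate 3 had the highest ratio and knockout replicate 1 the lowest, and the difference was -0.0492 without control replicate 3 and -0.0803 without knockout replicate 1. It was -0.38 without knockout replicate 2 and -0.36 without control replicate 1. The ratios of Arntl to Per2 (0.08, 0.54 and -0.08 in knockouts, against -0.22, -0.13 and 0.25 in controls) and of Arntl to Nr1d1 (-3.17, -2.82 and -3.12 in knockouts, against -3.25, -3.20 and -2.95 in controls) overlapped likewise. So did those of Arntl to Per1, Arntl to Per3 and Npas2 to Dbp, which makes 6 ratios in all. The differences of the means did not share a direction. Knockout minus control was 0.21 for Arntl to Per2, 0.10 for Arntl to Nr1d1 and 0.14 for Arntl to Per1. It was -0.36 for Arntl to Per3 and -0.19 for Npas2 to Dbp. No p was computed for these ratios, and since no hour is given, genotype and hour of collection cannot be told apart.

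Single libraries stood out within each group. Control replicate 3 had the highest Arntl, Npas2 and Clock of all 6 libraries. Among the controls it had the lowest Per1, Per2, Per3, Cry1 and Dbp. Relative to the control mean on the log2 scale, it stood at 0.28 for Arntl and 0.19 for Npas2, against -0.32 for Per1, -0.16 for Per3 and -0.17 for Cry1. Per2 and Dbp lay nearer to that mean, at -0.01 and -0.06. Nr1d1 did not follow Per1 and Per3 there, since it was also highest in that library (0.08). Among the knockouts, replicate 3 had the highest value of 8 of the 10 members and the lowest of 0, and replicate 2 had the lowest of 6 members, with Per2 at -0.35, Dbp at -0.31 and Nr1d1 at -0.22 relative to the knockout mean.

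**Figure D3:**
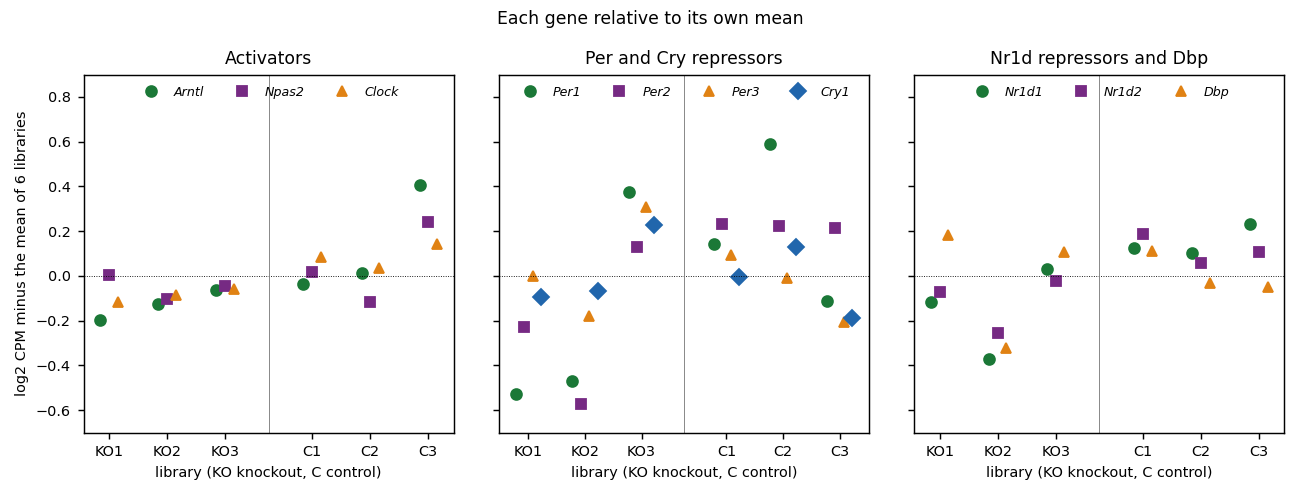
Log2 CPM of each clock gene minus its mean over the 6 libraries, for the activators (left), the Per and Cry repressors (middle) and the Nr1d genes with Dbp (right), with knockout libraries (KO) before control libraries (C) on each x axis. In control replicate 3 (C3) the activators lie above their means while Per1, Per3 and Cry1 lie below theirs. In knockout replicate 2 (KO2) all genes of the left, middle and right panels lie below their means.

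By TPM, which allows levels of different genes to be compared, Nr1d1 was the most abundant member, at a mean of 119 TPM over the 6 libraries (92.3 to 139), followed by Dbp at 94.8 TPM (76.4 to 108). Nr1d1 exceeded Dbp in all 6 libraries although their ranges overlap. Nr1d2 came next at 52.5 TPM (42.8 to 59.8), apart from its neighbours on both sides. Per1 (21.5 TPM), Npas2 (17.8 TPM), Clock (15.1 TPM), Arntl (14.02 TPM), Per3 (13.7 TPM) and Per2 (13.5 TPM) formed a band in which each range overlapped the next. Per1 exceeded Npas2 in 4 of 6 libraries, and neither Arntl over Per3 nor Per3 over Per2 held in more than 3. Cry1 was lowest at 2.18 TPM (1.88 to 2.54), well apart. Genes of the daytime arm thus exceeded Arntl in every library for Nr1d1, Nr1d2 and Dbp, in both groups.

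Knockout replicate 3, which held up the Per1 and Per2 levels of its group, also differed in other gene lists. The summed level of 14 immediate early genes (Fos, Egr1, Nr4a1 and others, which respond to stimulation and tissue handling as Per1 can) was 1855, 2043 and 3834 CPM in knockouts, against 2017, 1598 and 1605 CPM in controls. Of the 14, 3 rose (Junb, Egr2 and Egr3), where 6.5% of all genes rose, while Fos, Egr1 and Nr4a1 did not pass. All but Egr2 (2.97 CPM) and Nr4a3 (6.17 CPM), which were lowest there, were highest among the knockouts in replicate 3. The summed level of 10 brown adipocyte markers, which mark perivascular fat, was 289, 332 and 923 CPM in knockouts, against 1319, 734 and 480.2 CPM in controls. None of the 10 or of 8 white adipocyte markers passed. At an edgeR unadjusted p under 0.05, 2 brown and 0 white markers differed, all lower, where 13.2% of all genes were lower. The defining marker Ucp1 was above 0 in every library, between 60.4 and 600.4 CPM. Per2 and all brown and white adipocyte markers but Dio2 were highest among the knockouts in replicate 3. Dio2 was lowest there, at 63.6 CPM. In the controls Per2 spanned 57.9 to 58.7 CPM. With the mean log2 level of the brown and white adipocyte markers as a covariate, the log2 fold was -0.29 for Per2 (edgeR adjusted p = 0.302) and -0.08 for Per1 (edgeR adjusted p = 0.831). In that fit Arntl was at -0.32, Npas2 at -0.16, Clock at -0.17, Nr1d1 at -0.26 and Nr1d2 at -0.19. Per3 was at 0.26, Cry1 at 0.18 and Dbp at 0.04, and 1.26% of all genes were called. The centred covariate was -1.20, -0.74 and 0.71 in knockouts, against 1.03, 0.54 and -0.34 in controls. Whether fat has a part in the clock gene levels was not tested. The part of the immediate early genes was not tested.

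**Figure D4:**
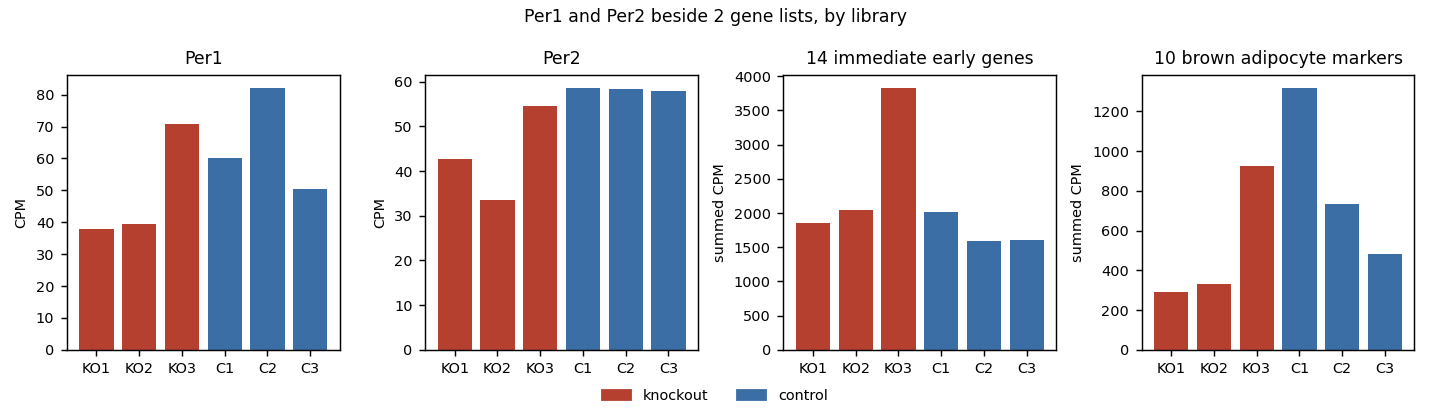
CPM of Per1 and Per2, and the summed CPM of 14 immediate early genes and of 10 brown adipocyte markers, in each library, with knockouts (red) left of controls (blue). Knockout replicate 3 (KO3) is the highest knockout in all 4 panels, and its immediate early genes, at 3834 CPM, exceed those of every other library.

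Markers of other cell types also differed between the groups. Over all genes in the same test, 6.5% rose and 3.84% fell. All 12 macrophage markers rose, with a summed level of 4088, 4569 and 1678 CPM in knockouts, against 859, 852 and 662 CPM in controls, so that knockout replicate 3 lay nearest to the controls. In addition, 5 of 8 smooth muscle markers fell, with a summed level of 22504 to 26897 CPM in knockouts, against 33472 to 38579 CPM in controls. Of 7 fibroblast markers 4 rose, with a summed level of 5425 to 7289 CPM in knockouts, against 3941 to 4538 CPM in controls. Of 8 endothelial markers 3 rose (Cdh5, Tie1 and Egfl7), with summed levels that overlapped, at 1937 to 2129 CPM in knockouts, against 1753 to 2202 CPM in controls. In whole tissue, fewer cells of a type and less RNA per cell cannot be told apart, and the part of these cell types in the clock gene levels was not tested. Of 9 glucocorticoid-induced genes, Sgk1 and Cdkn1a rose and Klf9 fell; Fkbp5, a common readout of the hormone, had 21.7 ± 1.78 CPM in knockouts and 18.7 ± 1.56 CPM in controls (SD, n = 3 each; edgeR adjusted p = 0.173). Klf9, which is also rhythmic in many tissues, had 174, 157 and 198 CPM in knockouts, against 233, 241 and 239.7 CPM in controls, a log2 fold of -0.43 (edgeR adjusted p = 0.0370).

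Among 27 further genes of the clock, 2 rose and 2 fell. Over all genes 6.5% rose and 3.84% fell, so the count is near the background. The lists described below overlap, as Tef, Ciart, Hlf and Usp2 each stand in 2 of them. The median log2 fold of the 27 genes was -0.02. The groups did not overlap for 7 of the 27 lower in knockouts and 3 higher, where 17.2% of all genes were lower and 18.9% higher. Of 12 other genes of the transcription loop, Bhlhe40 (DEC1), a repressor that competes for E-boxes, rose, with 93.3, 88.8 and 67.8 CPM in knockouts, against 51.9, 49.96 and 44.0 CPM in controls, a log2 fold of 0.78 (SE 0.13; edgeR adjusted p = 0.0296). Its relative Bhlhe41 had a log2 fold of 0.40 and did not pass (edgeR adjusted p = 0.108); without knockout replicate 3 it was 0.51 (edgeR adjusted p = 0.0226). Rora, which activates Arntl through the RORE that the NR1D proteins occupy, fell, with 50.1, 48.0 and 55.03 CPM in knockouts, against 66.2, 66.1 and 64.2 CPM in controls, a log2 fold of -0.36 (SE 0.06; edgeR adjusted p = 0.0300). Timeless, which in mammals also acts at the replication fork, rose, with 10.1, 12.2 and 7.46 CPM in knockouts, against 5.41, 5.59 and 4.58 CPM in controls, a log2 fold of 0.93 (SE 0.19; edgeR adjusted p = 0.0373). Cry2 and Nfil3 did not pass, with log2 folds of -0.15 and 0.16, although Cry2 was called lower without knockout replicate 3, at -0.25 (edgeR adjusted p = 0.0453).

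A list of 10 genes held kinases, ubiquitin ligases and the deubiquitinase gene Usp2, whose products act on clock proteins. Of these 10, Fbxw11, a ligase subunit that targets PER proteins, fell slightly. It had 82.1, 80.4 and 84.0 CPM in knockouts, against 96.4, 91.8 and 99.9 CPM in controls. The log2 fold was -0.23 (SE 0.05, edgeR adjusted p = 0.0437). The kinase gene Gsk3b and the kinase subunit gene Csnk2b had log2 folds of -0.20 and -0.07 and did not pass; without knockout replicate 3, Gsk3b was called lower, at -0.23 (edgeR adjusted p = 0.0438). Of 9 output genes that are rhythmic in many mouse tissues, 0 passed with edgeR, DESeq2 or limma in all 6 libraries; 1 was higher at an unadjusted p under 0.05, Tspan4, with a log2 fold of 0.45 (edgeR adjusted p = 0.129). Without knockout replicate 3, Tspan4 was called higher, at 0.64 (edgeR adjusted p = 0.00066). Por and Wee1 had log2 folds of -0.15 and -0.26. All 4 calls among the 27 were lost when any single library other than knockout replicate 3 was left out. Those fits called between 0% and 0.40% of all genes. Without knockout replicate 3, 8 of the 27 (29.6%) were called, near the 28.7% of all genes called in that fit.

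**Figure D5:**
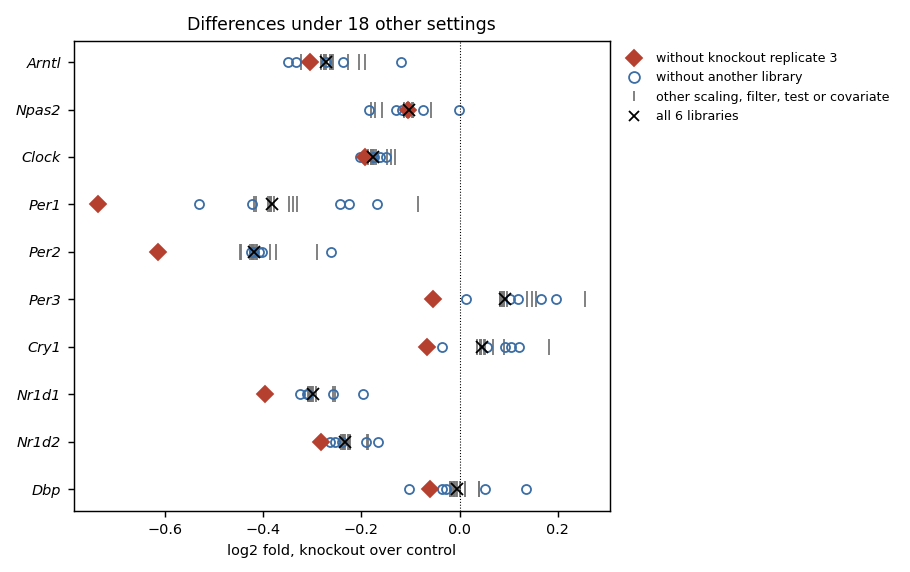
Log2 fold, knockout over control, of each clock gene in all 6 libraries (black crosses), without knockout replicate 3 (red diamonds), without each other library (open blue circles) and with other scaling, filters, tests or a covariate (grey ticks). Arntl, Npas2, Clock, Per1, Per2, Nr1d1 and Nr1d2 stay below 0 in all 18 alternatives, and Per1 spans -0.74 to -0.08.

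The genes whose level over the 6 libraries was most like that of Arntl, by the root mean square difference of centred log2 CPM among 12816 genes, were Lrch1 (0.03), Ak4 (0.03), Pcdhga5 (0.05), Rybp (0.05) and Fzd3 (0.06). Lrch1, for example, had 42.4, 43.3 and 44.5 CPM in knockouts, against 44.9, 47.8 and 61.4 CPM in controls, with control replicate 3 high as for Arntl. Those most like Dbp were Scml2 (0.06), Fkbpl (0.06), Mblac2 (0.07), Zfp647 (0.07) and Fam229b (0.07), each with its lowest value in knockout replicate 2. As the genes were picked for likeness to Arntl or Dbp, a shared high or low library follows from the choice. None of these 10 is a member of the clock lists.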

How the data were processed

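Aortic RNA of 3 knockout and 3 control libraries was analysed; groups and replicate numbers came from the sample titles. FastQC 0.11.8 and Trim Galore 0.6.5 are listed in the submitters' processing notes, as are kallisto 0.46.2 and the build GRCm38. The deposited estimated counts (36557 rows) need not be whole, and low values stepped by a constant between 0.900 and 1.07 in each library; how it arose is not given in the sources used here. The second deposited table, a signal labelled TPM, sums to between 955527 and 1034723 per library. It served for levels between genes and for ratios.

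Estimated counts were rounded, low counts removed by filterByExpr (minimum 10), and TMM scaling applied before all genes were tested with edgeR 4.0.16 (R 4.3.3); limma 3.58.1 and DESeq2 1.42.0 gave alternatives. A call needs an adjusted p (Benjamini-Hochberg) under 0.05; SEs are the log2 fold over the root of F. The script was tested on simulated data. Coordinates and UTRs are from GENCODE mouse release 21; promoters and the microRNA are from RefSeq, GRCm38.p6. Named genes were all members, called genes of the other clock lists, up to 3 of lowest p among the rest of each, and the 5 nearest profiles to Arntl and to Dbp. One gene that this rule names is not reported here. Members and lists were chosen with earlier results of these data known.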

Additional observations from a re-analysis of the deposited data

How the results depend on the processing

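The number of genes called rested on the libraries and the test: against 1131 higher and 667 lower, DESeq2 called 2086 and 1357, limma-voom 559 and 514, limma 461 and 251 on log2(TPM + 1) and 641 and 301 on log2(TPM + 0.1), and edgeR 116 and 104 with the perivascular fat covariate. Leaving out 1 library gave between 0 and 3051 higher and between 0 and 2028 lower genes, the 0 without control replicate 1 or 3. Clock genes called lower numbered 0 in all 6 libraries, 1 with DESeq2, and between 0 and 5 with 1 library left out; 0 were called higher under every alternative. Of the 27 other clock genes, 4 were called in all 6 libraries, 2 with limma-voom, 1 and 1 with limma on the 2 TPM scales, 0 with the fat covariate, and between 0 and 8 with 1 library left out. The cause of these shifts was not tested, and fewer libraries leave fewer residual degrees of freedom. Folds that changed sign were small in all 6 libraries. With 1 library left out, Per3 lay between -0.0538 (without knockout replicate 3) and 0.197, and Cry1 between -0.0662 (also without knockout replicate 3) and 0.122, being -0.03 without control replicate 3. Dbp, at -0.01, was 0.0402 with library size alone, 0.00051 when only genes reaching a mean log2 CPM of 1 were kept, 0.0114 on both TPM scales and 0.0401 with the fat covariate; with 1 library left out it lay between -0.103 and 0.13. The replicate number as a block gave 1295 higher and 700 lower genes, 0 members and 4 other clock genes, with Bhlhe41 called and Fbxw11 not; same-numbered libraries deviated with correlations of -0.20, 0.37 and 0.07, so the numbers were not taken to pair samples. The difference of the Arntl to Dbp ratio, -0.22, was -0.24 from CPM and between -0.38 and -0.0492 with 1 library left out.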
